A study of Caenorhabditis elegans with 2 samples.

Results

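The regions described here are the candidate binding regions of LET-607 that rank directly below the authors' reproducibility threshold. They are 1488 of the 30000 candidates in the list that the authors called on both replicates together, and they hold ranks 1489 to 2976 when that list is sorted by signal, strongest first. They were selected on the measured signal, so their signal and q-values are given as a description and are not tested. The 1488 regions of the authors' thresholded list hold ranks 1 to 1488, without an exception, so the 2 sets meet at a single cut in one ranking. The experiment was chromatin immunoprecipitation followed by sequencing (ChIP-seq) on whole Caenorhabditis elegans of strain YL651. Its alleles were let-607(tm1423) and unc-119(ed3) III. The transgene vrIs121, written as [LET-607 fosmid, unc-119 (+)] in the labels, supplied LET-607 with GFP and FLAG at its carboxyl end together with the unc-119 marker, and the protein was pulled down through GFP. Both sexes were pooled, and animals started as bleached, starved first-stage larvae were harvested as young adults at 49.5 hours. There is 1 group with 2 biological replicates, so no conditions can be compared. The comparisons below are between rank ranges of one list, and their p-values are over regions, which are not replicates.

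LET-607 is a basic leucine zipper (bZIP) factor of the CREB3 family, whose mammalian members sit in the membrane of the endoplasmic reticulum (ER), are cut free to enter the nucleus, and switch on genes of the secretory pathway. Transcription factors of this kind bind short DNA words built around an ACGT core, and the target sites of many worm factors lie close upstream of gene starts, since the genome is compact. A region list from ChIP-seq is a ranking, and a threshold such as the irreproducible discovery rate (IDR) cuts it where the order of the replicates stops agreeing well enough. The regions directly under the cut are those that would come next if the list were extended by signal.

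The sequences of 6 members are shown because each holds one of the motifs counted below at a gene start. For each motif of 6 or more letters, the highest-ranked eligible member was taken, with genes of the lists described below preferred. Eligible members had a summit in a start window and outside annotated untranslated sequence. Members on a chromosome named under the processing of the data were left out, so a region shown need not be the highest-ranked member with its motif. Each sequence runs 50 bp to each side of the summit on the plus strand of ce11 (the RefSeq assembly WBcel235), and capitals mark every match to the motif on either strand. 
mcu-1 chrIV:5939309-5939409: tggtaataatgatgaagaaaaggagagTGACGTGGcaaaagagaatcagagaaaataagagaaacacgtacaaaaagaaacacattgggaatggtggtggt
memb-1 chrX:9441667-9441767: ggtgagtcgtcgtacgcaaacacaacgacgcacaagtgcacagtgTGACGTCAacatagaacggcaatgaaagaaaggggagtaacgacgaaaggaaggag
nhr-32 chrX:13251615-13251715: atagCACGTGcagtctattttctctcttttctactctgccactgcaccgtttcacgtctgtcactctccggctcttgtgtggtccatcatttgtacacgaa
col-74 chrII:5830112-5830212: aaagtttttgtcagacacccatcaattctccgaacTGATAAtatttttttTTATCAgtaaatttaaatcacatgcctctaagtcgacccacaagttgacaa
sph-1 chrIV:8133626-8133726: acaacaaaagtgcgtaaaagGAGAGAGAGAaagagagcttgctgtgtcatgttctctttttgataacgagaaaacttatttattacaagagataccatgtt
efl-1 chrV:16965805-16965905: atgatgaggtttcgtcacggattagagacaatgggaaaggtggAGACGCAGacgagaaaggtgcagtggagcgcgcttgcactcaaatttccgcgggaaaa

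The mcu-1 region, at the gene of the mitochondrial calcium uniporter, holds TGACGTGG, the element bound by CREB3-type factors, and its summit lies 129 bp upstream of the start. Its signal was 52.4 in replicate 1 and 54.4 in replicate 2, and it ranked 1795 in the pooled list. The memb-1 region holds the palindrome TGACGTCA, the cyclic AMP response element, which begins 5 bp before its summit. The summit lies 146 bp upstream of memb-1, the gene of a Golgi SNARE. Its signal was 33.0 in replicate 1 and 66.3 in replicate 2, an unequal pair. The nhr-32 region holds the E-box CACGTG, which begins 46 bp before its summit, with a signal of 51.9 in replicate 1 against 54.3 in replicate 2. The col-74 window holds TGATAA, the GATA factor site, once on each strand. The sph-1 window holds 2 overlapping matches to GAGAGAGA on the plus strand. The efl-1 window, upstream of the gene of an E2F-type factor, holds AGACGCAG, which begins 7 bp before the summit.

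The cut that separates the members from the thresholded list falls between nearly equal signals. The signal is the peak caller's own value for each region. The sources used here do not name its formula, so it is used to order regions and is not read as a count of reads. The last thresholded regions had 110.8 each, and the first members had 110.8 each as well. At the lower end the last member had 81.365 and the first region outside had 81.363. Within the member ranks the signal ran from 81.4 to 110.8 with a median of 92.2, against 110.8 to 6859 with a median of 158 in the thresholded list and 69.7 to 81.4 in the 1488 candidates ranked next below. The authors' q-value was under 0.05 in 1277 of the 1488 members and under 0.01 in 553, whereas it was under 0.01 in all 1488 thresholded regions and under 0.05 in 0 of the candidates ranked next below. Almost every member, 1484 of 1488, was 404 bp wide.

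Member summits stood at gene starts less often than thresholded summits and more often than the candidates ranked next below. A start window began 1000 bp upstream of an annotated protein-coding start and ended 200 bp past it. It held 698 member summits (46.9%, Wilson 95% interval 44.4% to 49.4%), against 797 thresholded summits (53.6%, 51.0% to 56.1%) and 551 of the candidates ranked next below (37.0%, 34.6% to 39.5%). The odds ratio was 0.766 against the thresholded list (Fisher's exact test, two-sided, Benjamini-Hochberg adjusted over 15 shares, p = 0.000977) and 1.50 against the candidates next below (p = 2.85e-07, same test). Settings without a replicate used the other replicate's own list. There, ranks 1489 to 2976 stood in for the members, 1 to 1488 for the thresholded list and 2977 to 4464 for the candidates next below. With replicate 1 alone, that is without replicate 2, the second difference had an odds ratio of 1.11 and did not pass the same exact test (p = 0.527). Of the 698, 576 lay upstream of the nearest start in the window and 122 at or downstream of it, and the median position was 197 bp upstream, close to the 216 bp of the thresholded list. Across all members the median distance to the nearest start was 724 bp, against 630.5 bp in the thresholded list and 969.5 bp next below.

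Summits between divergent genes, which fall into start windows on both strands, followed the same order. They made up 6.99% of the members, against 12.4% of the thresholded list (185 regions) and 61 of the candidates next below. The odds ratio was 0.529 against the thresholded list (Fisher's exact test, adjusted p = 4.67e-06) and 1.76 against the candidates next below (adjusted p = 0.00217). Without replicate 2 the second of these was 1.05 and did not pass the exact test (adjusted p = 0.930).

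Coding exons separated the members from both neighbouring parts of the ranking. The summit lay in a coding exon in 264 members (17.7%, 15.9% to 19.8%), against 106 thresholded regions (7.12%, 5.92% to 8.54%) and 432 candidates next below (29.0%, 26.8% to 31.4%). The odds ratios were 2.81 against the thresholded list (Fisher's exact test, adjusted p = 1.39e-17) and 0.527 against the candidates next below (adjusted p = 5.83e-12). Intergenic summits ran the other way, with 641 members (43.1%), against 774 thresholded regions (52.02%) and 487 next below (32.7%), and both differences passed Fisher's exact test (adjusted p = 4.67e-06 and 5.36e-08). Intronic summits made up 27.2% of the members, 25.2% of the thresholded list and 28.0% of the candidates next below, and neither difference passed Fisher's exact test (adjusted p = 0.340 and 0.902). Without replicate 1, ranks 1489 to 2976 of replicate 2 had an odds ratio of 1.22 against its ranks 1 to 1488. That difference passed the exact test (adjusted p = 0.0368). Exons of noncoding genes held 78 members (5.24%), against 149 thresholded summits (10.01%, Fisher's exact test, adjusted p = 4.67e-06) and 63 next below (4.23%, adjusted p = 0.426). Summits in 3' UTRs were more frequent in the members, 51 against 29 in the thresholded list (odds ratio 1.79, Fisher's exact test, adjusted p = 0.0420). That call was lost in the exact test with the upper 744 member ranks alone (adjusted p = 0.480), without regions near tRNA genes (0.0603) and without replicate 2 (0.110).

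**Figure D1:**
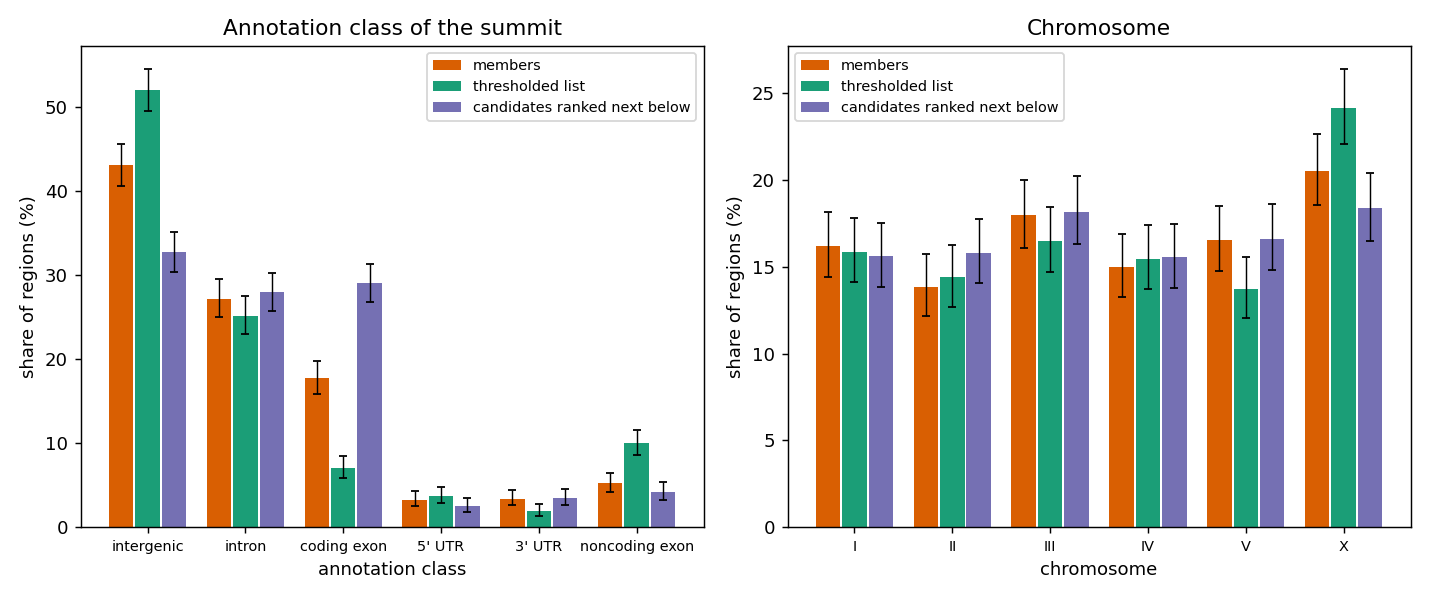
Share of regions (%, y axis) by annotation class of the summit (left) and by chromosome (right) for the members, the thresholded list and the candidates ranked next below, with Wilson 95% intervals as bars over counting error. In coding exons the members' 17.7% stands between 7.12% in the thresholded list and 29.0% next below, and on the X chromosome their 20.5% stands between 24.13% in the thresholded list and 18.3% next below.

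Over the whole pooled list the members occupied the steep part of a gradient. In successive ranges of 1488 ranks the share of summits in a start window was 53.6%, 46.9%, 37.0% and 34.9%, and from rank 11905 to rank 29760 it stayed between 26.1% and 29.5%. The share in coding exons was 7.12%, 17.7%, 29.0% and 31.9% in the same first ranges, and it reached 37.1% at its highest. The members' shares therefore stood between those of the strongest regions and the long tail in both measures. In the upper 372 ranks 192 summits were in a start window (51.6%, 46.5% to 56.6%) and 49 in a coding exon (13.17%, 10.1% to 16.99%), whereas in the lowest 372 ranks the counts were 172 (46.2%, 41.2% to 51.3%) and 78 (20.97%, 17.14% to 25.4%). The intervals overlapped for start windows and, narrowly, did not for coding exons. Within the members the start window share did not fall steadily, with 43.8% in ranks 1861 to 2232 and 46.0% in ranks 2233 to 2604. For coding exons these ranges had 18.5% and 18.3%.

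**Figure D2:**
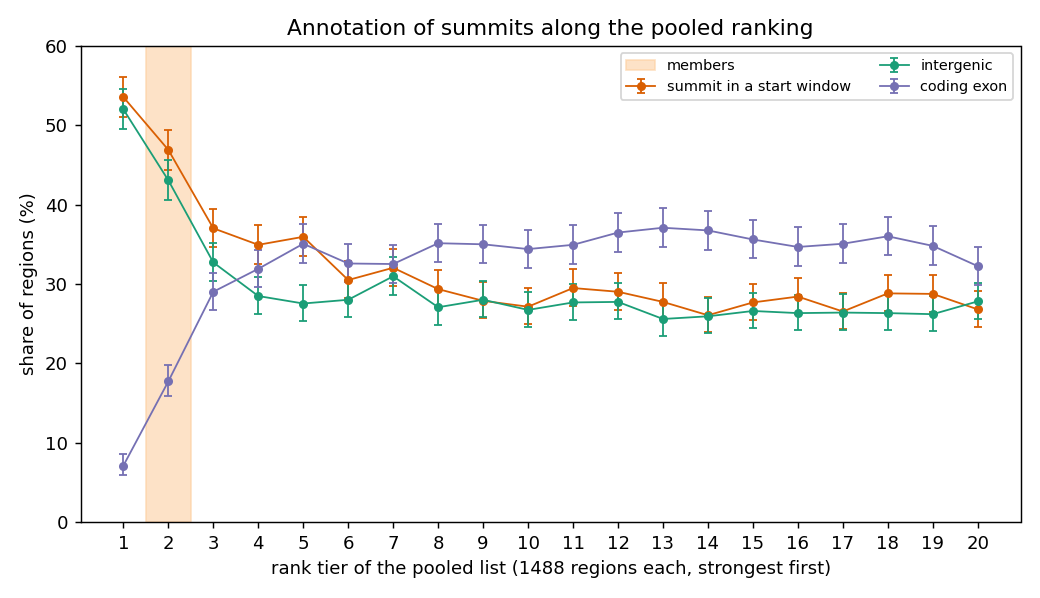
Share of summits (%, y axis) in a start window, in intergenic sequence and in coding exons over successive ranges of 1488 ranks of the pooled list (x axis, strongest first), with Wilson 95% intervals. The shaded range holds the members, at 46.9%, 43.1% and 17.7%, and the curves level off further down the list.

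The X chromosome held 305 members (20.5%, 18.5% to 22.6%), or 17.2 per Mb, against 359 thresholded regions (24.13%), or 20.3 per Mb. The odds ratio was 0.811 (Fisher's exact test, adjusted p = 0.0420). It no longer passed the exact test with the upper 744 member ranks (adjusted p = 0.590), without members within 1000 bp of a thresholded summit (0.0589), without regions near tRNA genes (0.130) or without replicate 1 (0.764). Against the 273 candidates next below on X the difference did not pass Fisher's exact test (odds ratio 1.15, adjusted p = 0.323), although without replicate 1 it did (1.25, adjusted p = 0.0431), and without replicate 2 it turned to 0.931. Chromosome V held 246 members (16.53%), against 204 thresholded regions (13.7%), which did not pass Fisher's exact test (odds ratio 1.25, adjusted p = 0.0672). Chromosome III had the highest density of members, 19.4 per Mb, and V the lowest, 11.8 per Mb. The other chromosomes gave odds ratios between 0.957 and 1.11 against the thresholded list, and none passed.

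Transfer RNA genes were near many members. The summit lay within 500 bp of a tRNA gene in 115 members (7.73%), against 143 thresholded regions (9.61%, Fisher's exact test, adjusted p = 0.131) and 56 candidates next below (3.76%, odds ratio 2.14, adjusted p = 1.51e-05). Without replicate 2, ranks 1489 to 2976 of replicate 1 had an odds ratio of 0.595 against its ranks 1 to 1488. That difference passed the exact test (adjusted p = 0.000325). From rank 4465 on, the share was 1.88% or lower in every range of 1488 ranks. Of these 115 members, 53 (46.1%, 37.3% to 55.2%) were on the X chromosome, where 276 of the 612 annotated tRNA genes (45.1%) lie. Their summits were in a start window of a protein-coding gene in 29 cases (25.2%, 18.2% to 33.9%), their windows had a median GC content of 47.5% against 42.6% for all members, and 0 of 115 held CACGTG, where 3 counts of 115, the limit set for a count of 0, would be 2.61%. Among the upper 372 member ranks 47 were near a tRNA gene, and among the lowest 372 there were 21. Small nucleolar RNA genes lay within 500 bp of 32 members, against 79 thresholded regions and 26 candidates next below.

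Some members lay close to stronger regions. In 118 members (7.93%) the summit was within 1000 bp of a thresholded summit, against 87 (5.85%) of the candidates next below, and 50 members overlapped a thresholded region. The median distance to the nearest thresholded summit was 13571.5 bp. The first members in rank order show this. The first, ranked 1489 at I 6556161 to 6556564, had its summit in an intron 226 bp from a thresholded one, where replicate 1 gave 100.2 and replicate 2 gave 45.1. The next, at X 14946665 to 14947068, lay 550 bp upstream of mrp-5, a gene of an ABC transporter, and 203 bp from a thresholded summit, where replicate 1 gave 88.0 and replicate 2 gave 23.4. Of the 10 highest-ranked members 3 had a summit in a start window, at mrp-5, C32D5.8 and zfp-3. The zfp-3 member was more even, with 64.8 in replicate 1 and 47.8 in replicate 2, and its summit lay 266 bp upstream of the start and 7759 bp from the nearest thresholded summit.

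The let-607 locus itself, which the transgene adds to the genome, carried a run of regions. From I 6554556 to I 6589426, over 34871 bp, there were 17 thresholded regions and 8 members, the first-ranked member among them. The strongest region at let-607 ranked 63, at 336 in replicate 1 and 341 in replicate 2. A pair of members, ranked 2018 and 2400, lay 288 bp and 86 bp upstream of another annotated let-607 start. The first had 65.5 in replicate 1 and 76.5 in replicate 2, while the second had no matching region in replicate 1. The part of the extra gene copies in these values was not tested. Without the run the promoter odds ratio was 0.761 against the thresholded list (Fisher's exact test, adjusted p = 0.000693). The unc-119 gene, whose rescue marker is on the same transgene, had its best region at rank 2982, 6 ranks past the last member, 66 bp upstream of a start.

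Replicate support is described without a test, because the pooled signal is made from the same reads. A member summit fell inside a candidate region of both replicates in 1440 cases (96.8%), of replicate 1 alone in 18 and of replicate 2 alone in 30, against 1479 (99.4%) in both for the thresholded list and 1360 (91.4%) next below. Presence in the long candidate lists therefore set the parts little apart. Replicate ranks are largely fixed by how the members were chosen. At rank 1488 the signal was 57.03 in the list of replicate 1 and 62.78 in that of replicate 2, which sum to 119.8, above the 110.8 of the highest member, and the pooled signal was close to the sum of the replicate signals (median ratio 0.988). Under that choice 21 members (1.41%, 0.925% to 2.15%) matched a region among the 1488 strongest of both replicates, against 975 thresholded regions (65.5%, 63.1% to 67.9%) and 13 next below (0.874%). Of these 21, 14 had a thresholded summit within 500 bp, and 11 of the 21 matched, in both replicates, the same regions as a thresholded summit did. In at least 1 replicate the matching region was among the 1488 strongest for 486 members (32.7%), against 1452 thresholded regions (97.6%). Among the 2976 strongest of both replicates were 321 members (21.6%), against 1355 thresholded regions (91.1%) and 31 next below (2.08%).

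The spread between replicates was wider in the members than in the thresholded list. The median matching rank was 2713.5 in replicate 1 and 2529.5 in replicate 2, against 752 and 733.5 for the thresholded list. Replicate signals had a Spearman correlation of -0.50 over the 1440 members matched in both, against 0.59 over 1479 thresholded regions. A narrow range of a pooled signal that is close to the sum of both replicates by itself forces a negative correlation, so the value is only a description. The log2 ratio of replicate 1 over replicate 2 signal had an SD of 0.67 in the members, 0.52 in the thresholded list and 0.63 in the candidates next below. Like the correlation, it is only a description. The members ranked highest in replicate 1 were at I 12815996 to 12816399 (rank 181), ppm-2 (rank 221) and F48A11.4 (rank 308). Each lay between 199 and 205 bp from a thresholded summit. Those ranked highest in replicate 2, an intronic region near let-607 (rank 122), one on IV (rank 178) and one at klc-1 (rank 219), likewise lay between 200 and 207 bp from one. In each case the replicate signal was above the member's own pooled signal, such as 201 in replicate 2 against 81.4 on IV. A match takes the strongest region holding the summit, so these ranks may be those of the stronger neighbour, which was not tested.

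**Figure D3:**
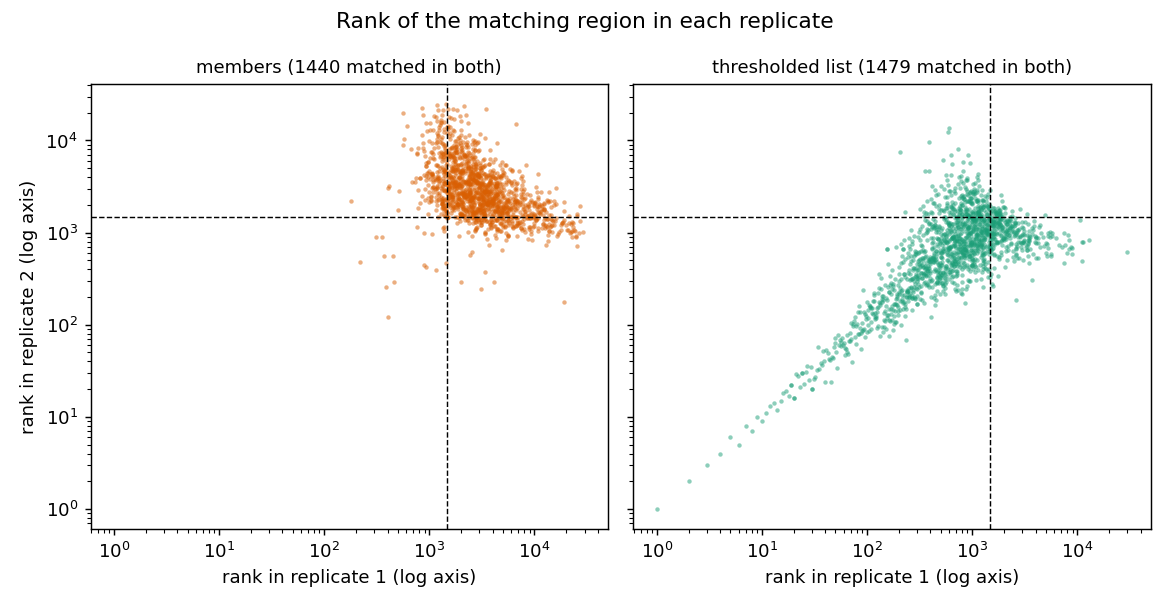
Rank of the matching region in replicate 1 (x axis, log scale) and replicate 2 (y axis, log scale) for the 1440 members (left) and the 1479 thresholded regions (right) matched in both. Dashed lines mark rank 1488, and 21 members lie inside both lines, against 975 thresholded regions.

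Some members were supported evenly. The ears-2 member, rank 1563, had 59.6 in replicate 1 and 54.2 in replicate 2, and its summit was 2 bp upstream of the start of this glutamyl-tRNA synthetase gene. The his-72 member, at the gene of a replacement histone H3, had 66.2 in replicate 1 and 52.6 in replicate 2. The opposite extreme was hlh-30, the worm TFEB factor of autophagy and lipid use, with 76.9 in replicate 1 and no matching region in replicate 2. At dnj-12 and vit-5 there was no matching region in replicate 1, with 83.4 and 63.2 in replicate 2. Members with even replicate signals and members without a match in a replicate thus shared this range of ranks. These genes were picked after their values were seen, so they do not measure how often either case occurred.

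A member summit lay in the start window of 781 protein-coding genes, 3.91% of the 19973 annotated, and 719 of these, 3.6% of all, had no thresholded summit there. The thresholded list reached 960 genes (4.81%). The 62 genes with both made up 7.94% of the member genes and 6.46% of the thresholded genes. Extending the list to rank 2976 would thus take the number of genes to 1679. A summit between close starts counts for each gene, so several genes below share a region. The counts of gene lists that follow are read against the 3.6%, without a test, a count marked thresholded being that of genes with a thresholded summit, and the lists were drawn up with results for the thresholded list known.

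In each list of secretory pathway genes, members alone reached fewer genes than the thresholded list did. The shares reached by members alone ran from 0% for the COPII coat to 15% for N-glycosylation, on both sides of the 3.6% of all genes. Of 27 genes for targeting and translocation into the ER, 1 had a member and no thresholded summit, against 14 with a thresholded summit. That gene was spcs-2, a subunit of signal peptidase, with a summit 144 bp upstream and signals of 46.8 (replicate 1) and 51.7 (replicate 2). Of 36 ER folding genes, 3 were reached by members alone, against 17 by the thresholded list. They were fkb-5, a prolyl isomerase, with 56.0 in replicate 1 and 34.7 in replicate 2, cyn-4, a cyclophilin, and dnj-28. The last, a J-domain protein, had 47.04 in replicate 1 and 39.57 in replicate 2. Whether cyn-4 acts in the ER was not examined, so its place in this list is an assumption. The cyn-4 region also lay 44 bp upstream of copz-1, the zeta subunit of the COPI coat, so 1 region accounts for a gene of each list.

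The vesicle coats and cargo receptors are the next step of the pathway. None of the 11 COPII genes had a member summit, whereas 6 had a thresholded one, and copz-1 was the only one of 8 COPI genes, against 5 thresholded. Of 16 cargo receptor genes 1 was added, tmed-12 of the p24 family, near the lower end at rank 2955 and with 31.8 in replicate 1 and 51.1 in replicate 2. Tethering and fusion genes gained 3 of 38, against 10 in the thresholded list. These were trpp-12 of the TRAPP complex, memb-1 and golg-4. The trpp-12 summit was nearer to the start of C43H6.12. The golg-4 summit was 930 bp upstream of golg-4 and 159 bp upstream of npp-9. Of the 14 regulators of the unfolded protein response none was reached by members alone, against 7 by the thresholded list.

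N-glycosylation was the secretory list with the highest share of genes reached by members alone, 3 of 20 (15%), against 4 in the thresholded list. These genes were stt-3, the catalytic subunit of oligosaccharyltransferase, and algn-5 and algn-6, which work on the dolichol-linked sugar precursor. All 3 were led by replicate 2. At stt-3 the signal was 32.4 in replicate 1 and 52.6 in replicate 2. At algn-6 it was 36.0 and 52.4, and at algn-5 it was 33.6 and 52.4. Each of their summits also lay nearer to the start of another gene, with gen-1, ubh-4 and Y45G5AM.9 closest. In ER-associated degradation 1 of 15 genes was added, cdc-48.2, a copy of the p97 ATPase, which had no match in replicate 1.

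The lists of transcription factor genes differed among themselves, and the 2 largest, nuclear hormone receptors and homeobox genes, were under the 3.6% of all genes. Of 30 bZIP genes 4 were reached by members alone (13.3%), against 9 by the thresholded list. These were zip-3, zip-5, jun-1 and atfs-1. The gene atfs-1, which encodes the factor that senses failing mitochondrial import, was even between replicates, with 44.8 in replicate 1 and 43.7 in replicate 2, and its summit lay upstream of the start. By contrast, zip-5 had 34.7 in replicate 1 and 66.9 in replicate 2, and jun-1 had 47.9 in replicate 1 and 29.1 in replicate 2. Of the other CREB-type genes, atf-4 had its best region at rank 4158, below the members. An intronic region of crh-1, the worm CREB, was just above the cut at rank 1425, and a member ranked 2420 lay 213 bp from it.

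Among 20 stress and longevity factors 6 were reached by members alone (30%), against 3 by the thresholded list. Besides hlh-30 and atfs-1 they included nhr-80, a nuclear receptor of fatty acid desaturation, pha-4, the FoxA factor, and daf-14, a Smad. The pha-4 member lay in an intron 879 bp upstream of one of its starts and had 45.5 in replicate 1 and 43.7 in replicate 2. The nhr-80 summit was 888 bp from nhr-80 and 15 bp from H10E21.1. Of 12 GATA factor genes, 3 had a member and none had a thresholded summit. These were elt-2, the main intestinal GATA factor, with 39.4 in replicate 1 and 61.8 in replicate 2, egl-27, with 58.6 and 40.6, and end-3, an endoderm specification gene, with 48.4 and 43.6. The lists overlap in their genes and are short, so 1 gene shifts a share by several percentage points.

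For the fatty acid list and the 2 mitochondrial lists, members alone reached more genes than the thresholded list did. For fatty acid synthesis and desaturation the counts were 5 of 28 genes (17.9%), against 2 thresholded. Those with the highest rank were acs-1, an acyl-CoA synthetase, sbp-1, the SREBP factor, fat-3, a desaturase, and elo-1, an elongase. The acs-1 and elo-1 members were even, with 47.2 in replicate 1 and 51.8 in replicate 2 for acs-1 and 48.7 and 46.4 for elo-1. The sbp-1 member was led by replicate 2, with 26.1 in replicate 1 and 70.5 in replicate 2. For mitochondrial ribosomal proteins the counts were 7 of 66 (10.6%), against 2 thresholded, with mrpl-12 at 49.9 in replicate 1 and 61.3 in replicate 2 and mrpl-45 at 61.7 and 51.7. The mrpl-12 and mrpl-45 summits were nearer to the starts of Y39A1A.22 and Y119D3B.12. For the mitochondrial stress response they were 3 of 10, namely ubl-5, clpp-1 and atfs-1, against 1 thresholded. The clpp-1 summit also lay within 500 bp of a tRNA gene.

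For the proteasome 4 of 33 genes were reached by members alone, against 2 thresholded. They were pas-5, rpn-3, rpt-1 and rpn-9, subunits of its core and cap. The rpn-3 region also served hsp-110, since both starts lay within 230 bp of the summit. Heat shock genes counted 4 of 23, against 6 thresholded, and 2 of these, hsp-16.2 and hsp-16.41, are a divergent pair of small heat shock genes that share 2 overlapping members ranked 1705 and 2099. Small heat shock and core histone genes have near-identical copies elsewhere in the genome, and the sources used here do not state how reads with several placements were treated. Histones counted 5 of 82, against 2 thresholded, with his-59 and his-61 in one cluster on chromosome IV.

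In translation, members alone reached 6 of 83 cytosolic ribosomal protein genes (7.23%), against 26 by the thresholded list. The rps-29 summit was 58 bp inside snt-2 and its signal was 20.2 in replicate 1 and 79.4 in replicate 2. They reached 6 of 42 translation factor genes, against 10 thresholded, including eif-3.B, eif-3.D and eif-3.J of the initiation complex eIF3, and 3 of 31 aminoacyl-tRNA synthetase genes, against 5 thresholded. The vacuolar ATPase counted 3 of 21, against 4 thresholded, and phosphatidylcholine synthesis 1 of 11, against 3 thresholded, through pmt-1. For the yolk and lipoprotein genes it was 1 of 14, vit-5, against 5 thresholded.

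The lists of 88 or more genes were near or under the 3.6% of all genes. Members alone reached 6 of 179 collagens (3.35%), against 1 in the thresholded list. They reached 9 of 274 nuclear hormone receptors (3.28%), against 8 thresholded, and 7 of 1314 chemoreceptors (0.533%), against 7 thresholded. For detoxification genes it was 4 of 201 (1.99%), against 5 thresholded, for C-type lectins 2 of 240 (0.833%), against 3 thresholded, and for homeobox genes 0 of 88, against 2 thresholded. Of the DREAM and synMuv B genes efl-1 was the 1 of 18, against 7 thresholded, and of the exocyst exoc-7 was the 1 of 9, against 2 thresholded. Heterochronic genes (0 of 12, against 3 thresholded) and Notch, Wnt and TGF-beta genes (0 of 29, against 2 thresholded) had none.

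Few marker genes of tissues had a member summit, and the lists are too short to set their shares apart from the 3.6% of all genes. The worms were whole animals, so the tissue in which a region was bound cannot be read from these lists. Of 16 intestinal markers 1 had a member alone (elt-2), against 6 with a thresholded summit, and of 8 pharynx markers 1 (myo-2, rank 2969, 46.6 in replicate 1 and 42.1 in replicate 2), against 0 thresholded. Germline (16 genes), neuron (20), muscle (16) and hypodermis (12) markers had 0 in both parts.

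**Figure D4:**
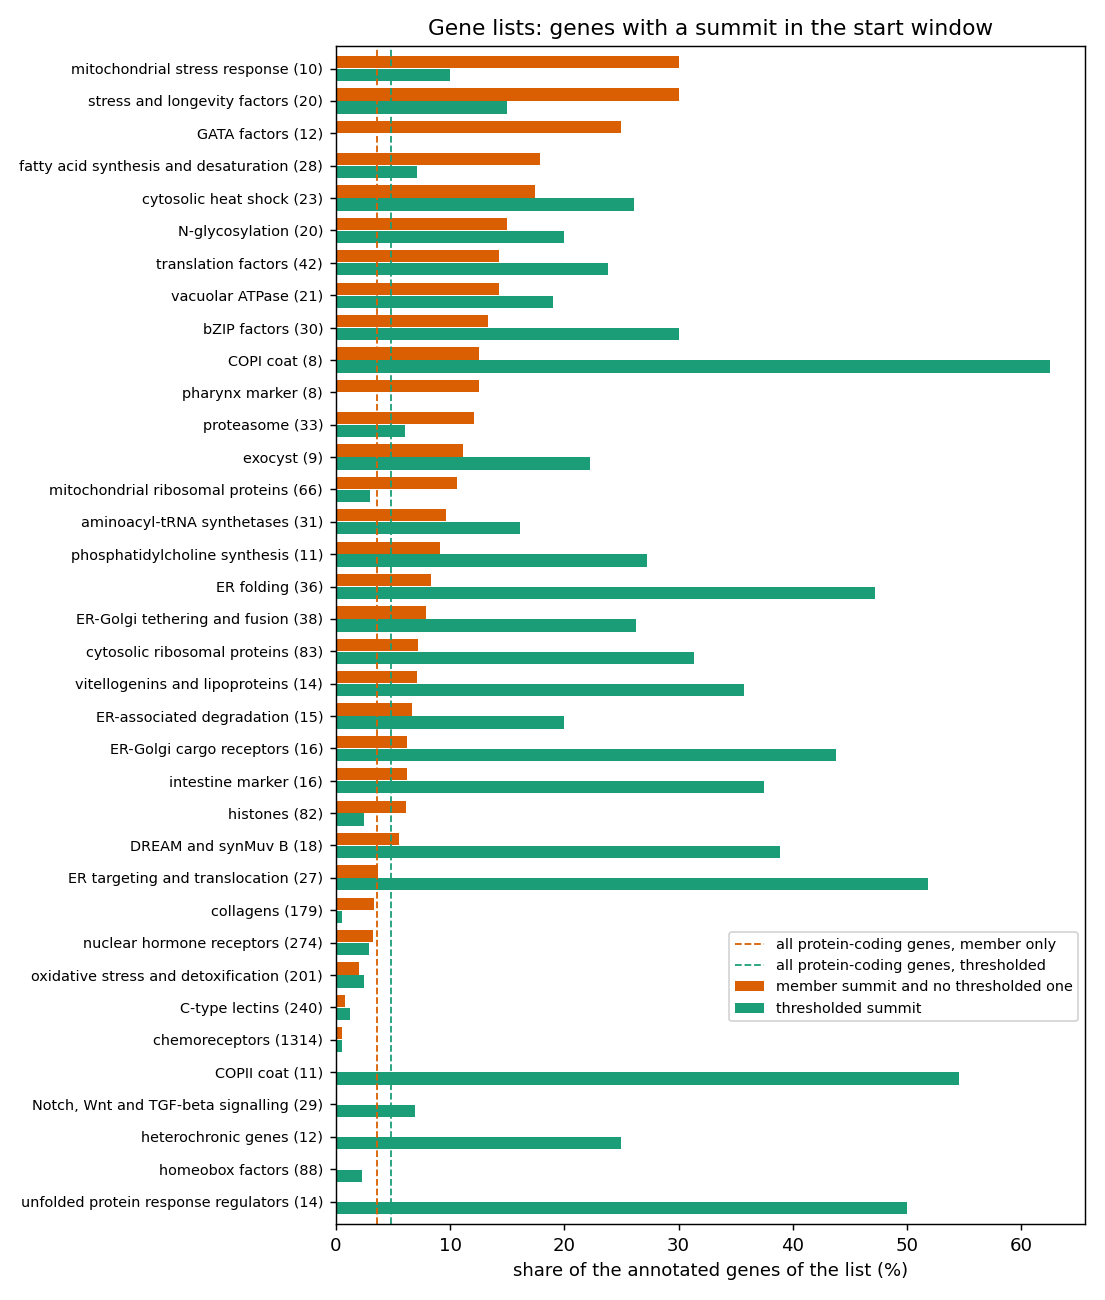
Share of the annotated genes of each list (x axis, %) with a member summit and no thresholded one and with a thresholded summit in the start window, list sizes in brackets. Dashed lines give the shares over all protein-coding genes, 3.6% and 4.81%, and lists with no gene in either set are left out. In the top 4 lists, the GATA factors among them, the share with a member summit alone exceeds the share with a thresholded summit, while in the ER and coat lists it does not.

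Of the 719 genes with a member summit and no thresholded one, 36 had 2 or more member summits in their windows. The highest-ranked was npr-13, a neuropeptide receptor gene, with summits 32 bp and 721 bp upstream at ranks 1510 and 2790, both in a coding exon. The first had 46.6 in replicate 1 and 56.0 in replicate 2. At idh-1, an isocitrate dehydrogenase gene, the member 75 bp upstream of a start had 68.69 in replicate 1 and 37.96 in replicate 2. At aldo-2, an aldolase gene, members ranked 1817 and 1947 lay 90 bp downstream and 391 bp upstream of starts. Some pairs, such as those of F28H6.7, pmp-2 and the hsp-16.2 pair, overlapped and matched the same region in a replicate, so they are not separate observations there.

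The ACGT core was less frequent at member summits than at thresholded ones, while its difference from the candidates next below did not pass. In the 101 bp around the summit, on either strand, ACGT was present in 394 members (26.5%, 24.3% to 28.8%), against 508 thresholded regions (34.1%, 31.8% to 36.6%) and 401 next below (26.9%, 24.8% to 29.3%), and in 23.2% of all 30000 candidates. The odds ratio was 0.695 against the thresholded list (Fisher's exact test, adjusted over 8 motifs, p = 5.16e-05) and 0.976 against the candidates next below (adjusted p = 0.844). TGACG, which begins both longer CREB-type elements, was in 245 members, against 324 thresholded regions (odds ratio 0.708, Fisher's exact test, adjusted p = 0.00109) and 254 next below (0.958, adjusted p = 0.844), and in 14.1% of all candidates. CACGTG, which contains ACGT, was in 79 members, against 116 thresholded regions (odds ratio 0.663, Fisher's exact test, adjusted p = 0.0200) and 52 next below (1.55, adjusted p = 0.131), and in 3.14% of all. The call for CACGTG against the thresholded list was lost in the exact test in windows of 51 bp (adjusted p = 0.0737) and with the upper 744 member ranks (0.281). Against the candidates next below, the odds ratios of ACGT and TGACG were on the other side of 1 without either replicate, at 1.07 and 1.19 without replicate 1 and 1.18 and 1.05 without replicate 2, and none of these passed.

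The complete CREB-type elements shown above at mcu-1 and memb-1 were rare. TGACGTGG was in 14 members (0.941%, 0.561% to 1.57%), against 28 thresholded regions (Fisher's exact test, adjusted p = 0.0762) and 12 next below, and in 0.623% of all candidates. TGACGTCA was in 7 members (0.470%), against 11 thresholded regions (0.739%) and 11 next below (0.739%), and in 0.79% of all. TGATAA was in 203 members (13.6%), against 230 thresholded regions (Fisher's exact test, adjusted p = 0.235) and 167 next below (adjusted p = 0.131). In strata of GC content TGATAA was less frequent in the members than in the thresholded list (odds ratio 0.651, adjusted p = 0.000476 by a Cochran-Mantel-Haenszel test, which is not exact). GAGAGAGA was in 57 members, against 50 thresholded regions (Fisher's exact test, adjusted p = 0.555) and 37 next below (0.131), and in 1.65% of all candidates. AGACGCAG was in 59 members, against 83 thresholded regions (Fisher's exact test, adjusted p = 0.0762) and 40 next below (0.131), and in 1.61% of all. Against the ranks of a single replicate that stood in for the thresholded list, AGACGCAG passed the exact test without replicate 1 (odds ratio 0.538) and without replicate 2 (0.404). TGACGTGG (0.477) and TGATAA (0.727) passed there without replicate 2. The GAGAGAGA odds ratio was under 1 without either replicate. The 8 motifs had been tried on the thresholded list in earlier work, which favours that list.

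All 2080 words of 6 letters, each counted with its reverse complement, were compared between the members and the 27024 candidates below them. In the members 203 were more frequent (9.76%) and 121 less frequent (5.82%) at an adjusted p under 0.05 (Fisher's exact test). In strata of GC content, which differed between the parts, 140 and 66 passed, and without replicate 2 the counts were 130 and 74. The smallest p belonged to GAGAGA, present in 232 members (15.6%) against 2058 of the candidates below (7.62%), an odds ratio of 2.24 (Fisher's exact test, adjusted p = 4.93e-20). It was followed by AGAGAC in 168 members (11.3%, against 5.01% below), AGAGAG in 203 (13.6%, against 6.69% below), CACACA in 173 (11.6%, a higher share than below) and AGACGC in 117 (7.86%, against 3.40% below). GAGAGA and AGAGAG are parts of the repeat at sph-1 shown above, and AGACGC is part of the AGACGCAG shown at efl-1. At least 1 of the 5 was in 527 members (35.4%), against 5318 of the candidates below (19.7%), and in 638 thresholded regions (42.9%). Of the less frequent words the smallest p belonged to AAAATT, in 317 members (21.3%, against 29.3% below, Fisher's exact test, adjusted p = 2.39e-09).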

How the data were processed

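The files are region lists of LET-607-GFP ChIP-seq on ce11: 30000 candidates for replicate 1, 26493 for replicate 2, 30000 called on both together, and 1488 kept by IDR. The text deposited with the files says that each list was called against a control alignment, which was not analysed here. The deposited signal value and the deposited −log10 q-value of each region are the authors'. The sources used here do not name the signal formula, aligner or peak caller. Read depth is unknown, and intervals cover counting error only. The members and the gene lists were chosen with earlier results of these data known.

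Ranks follow the pooled signal, which had 0 ties. Summits were placed 1-based on Ensembl release 115 for the matching assembly, with coding exon before UTR, intron, noncoding exon and intergenic. A region matched a replicate when its summit lay inside a candidate there, and the strongest such candidate was taken. Shares of 15 features and 8 motifs were compared with the thresholded list and with the 1488 candidates next below, and 2080 6-mers with all below, by two-sided Fisher's exact tests with Benjamini-Hochberg adjustment. Where GC strata are named, a Cochran-Mantel-Haenszel test over 5 strata was used. Named genes had a summit in their window of the 10 highest-ranked members, or were up to 4 per list with the highest-ranked member and no thresholded summit, or had 2 or more such members. The regions next to each end of the ranks, the 3 ranked highest in each replicate, and let-607, unc-119, atf-4 and crh-1 were added. Members on chromosome I, which holds the run at let-607, were left out when the sequences to be shown were chosen. Genes named for an even or one-sided replicate pair were picked from these after their values were seen. The tests were checked on simulated data with planted differences. Python 3.11.15, numpy 2.4.6, scipy 1.17.1 and pandas 2.3.3 were used.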

Additional observations from a re-analysis of the deposited data

How the results depend on the processing

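The comparisons were recomputed, each under the alternatives that apply to it, with other windows, GC strata, the upper 744 member ranks, members near thresholded summits or tRNA genes left out, and each replicate left out, where the ranking came from the other replicate alone. With a replicate left out, the same rank ranges of the other replicate's own list were compared. Those settings therefore used neither the members nor the thresholded list themselves. Leaving out the run at let-607 was chosen after seeing the data. No paired analysis was possible because there is 1 group. Of 415 odds ratios 353 kept their side of 1 and their call, 20 gained a call, 11 lost one and 31 changed side or reached 1. None of those 31 passed. The cause of the changes was not tested.

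Against the thresholded list, the upper 744 member ranks gave 1.09 for 5' UTRs, 0.940 for chromosome I and 1.01 for tRNA genes. Chromosome I was 0.998 without members near thresholded summits and 0.970 without regions near tRNA genes, and GAGAGAGA was 0.893 in 201 bp windows. Leaving out a replicate gave 0.941 to 1.06 for chromosome I, 0.978 to 1.14 for II, 1 to 1.15 for III, 0.874 to 1.01 for IV and 0.819 to 0.960 for GAGAGAGA.

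Against the candidates next below, chromosome I was 0.959 with the upper 744 ranks. Chromosome V was 1.03 without members near thresholded summits, and also 1.03 without regions near tRNA genes, where III was 1.01. In 51 bp windows TGACGTGG was 0.833, TGACGTCA 1.25 and ACGT 1.11, and in 201 bp windows TGACG was 1.08 and ACGT 1.04. Leaving out a replicate gave 1.11 to 1.41 for start windows (the call was lost at 1.11, without replicate 2), 0.927 to 1.01 for introns, 0.901 to 1.33 for chromosome I, 1.02 to 1.09 for III, 0.931 to 1.25 for X, 1.05 to 1.19 for TGACG, 1.07 to 1.18 for ACGT and 0.952 to 1.11 for TGATAA. The 1.33 of chromosome I passed (Fisher's exact test, adjusted p = 0.0295).

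Motifs past the threshold against the thresholded list numbered 3, but 5 in 201 bp windows, 5 without regions near tRNA genes and 4 to 6 without a replicate. Against the candidates next below there were 0, but 1 in 51 bp windows, 2 in 201 bp windows and 2 with the upper 744 ranks. More frequent 6-mers numbered 103 in 51 bp windows and 130 to 179 without a replicate. Less frequent ones numbered 36 in 51 bp windows, 191 in 201 bp windows, 66 in GC strata, 64 with the upper 744 ranks and 74 to 94 without a replicate. With matches limited to summits within 100 bp, 83.0% of members matched both replicates, 0.134% were among the strongest of both and 29.2% of at least 1. With the summit inside a candidate as the match, the share among the strongest of at least 1 replicate was 48.3% in the upper 744 ranks. It was 32.7% in all members.

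Read depth is unknown, and the single group leaves the spread between conditions unmeasured.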

Other observations

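The positions of members that led in one replicate are given here as values without a test, each share with its Wilson 95% interval. Of the 236 members among the 1488 strongest regions of replicate 1 alone, 111 had a summit in a start window (47.03%, 40.8% to 53.4%), 51 in a coding exon (21.6%, 16.8% to 27.3%) and 35 within 500 bp of a tRNA gene (14.8%, 10.9% to 19.9%). Of the 229 among the strongest of replicate 2 alone, 121 had a summit in a start window (52.8%, 46.4% to 59.2%), 32 in a coding exon (13.97%, 10.1% to 19.1%) and 15 near a tRNA gene (6.55%, 4.01% to 10.5%). The intervals of the 2 sets overlapped for start windows and coding exons. The median GC content of the 101 bp windows was 44.6% in the first set and 41.6% in the second. Genes of miRNAs lay within 500 bp of 19 members, against 17 thresholded regions and 13 candidates next below. Genes of snRNAs lay there for 10 members, against 15 thresholded regions and 2 candidates next below.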
